A study of Mus musculus with 6 samples.

Results

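Imprinted genes were followed in mouse neural progenitor cells (NPCs), proliferating cells that give rise to neurons and glia, in which the repressor protein SPEN can be degraded by adding auxin. The members were 40 genes of known imprinting taken by symbol from a list, out of the 53801 genes counted. No expression value entered the rule for these genes, although earlier results of these data were known when they were chosen. They fall into 18 imprinted clusters, 10 of them with 2 or more members here, and 17 of the 40 lie on chromosome 7. By textbook assignment 21 are expressed from the paternal and 19 from the maternal chromosome, and 7 are long noncoding RNAs. A filter on low counts kept 33 of the 40, and 16007 genes in all.

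The NPCs were made from embryonic stem cells of the cross BL/6J x CAST-EiJ with SPEN fused to a degron, a peptide that sends its carrier protein to the proteasome once the plant hormone auxin is added. They grew in N2B27 with EGF and FGF (10 ng/ml each) on 0.1% gelatin, and both subclones, clone 31 and clone 30, were sampled at 0 h (untreated), 24 h and 48 h of auxin at 500 uM, with 1 library per subclone and time. All 6 libraries carry the degron, each subclone is 1 line, and auxin-treated cells without the degron were not analysed here, so an effect of auxin itself and an effect of SPEN loss cannot be told apart. With 2 libraries a group, p-values set a change against the spread between these libraries. Where the clone enters the fit, the steady difference between the clones is taken out of that spread. The clone comparison covers these subclones alone.

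An imprinted gene is transcribed mainly from the chromosome inherited from 1 parent, because the egg or the sperm methylated a control region near it and the embryo kept that mark. Many imprinted genes sit in clusters where a single control region governs protein-coding genes and a long noncoding RNA, and they are known for acting in growth, the placenta and the developing brain. SPEN is an RNA-binding corepressor best known for silencing by Xist RNA, and imprinted noncoding RNAs such as Airn and Kcnq1ot1 silence neighbours on their own chromosome. The counts hold both alleles together, so which parental copy was read was not separated, and loss of imprinting cannot be seen from these values.

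Total counts ran from 24603816 to 43008978 per library, and a floor of 3 counts corresponded to 0.0711 to 0.120 CPM (counts scaled to library size). Neural progenitor markers summed to 5878 to 7808 CPM in the 6 libraries. The 9 pluripotency markers summed to 13.9 to 31.2 CPM, highest in clone 31 at 48 h, with 3 of them detected in every library. Pou5f1, Zfp42, Dppa5a, Dppa3 and Utf1 among them were at 0 in all 6 libraries. The 8 endoderm markers summed to 0.375 to 1.39 CPM, with 2 detected in every library and Sox17 at 0 in all 6. Spen itself had 116, 218 and 259 CPM at 0, 24 and 48 h in clone 31 and 92.4, 174 and 200 CPM in clone 30. Auxin removes the protein and not the transcript, so these values do not show how much SPEN was lost.

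The promoter windows of 3 members are shown because their genes carry the results that follow. Igf2r and Airn were both lower after 48 h and both higher in clone 31, and Peg3 was higher after 48 h while Usp29, whose annotated start lies 147 bp away on the other strand, was not called. Each window holds 250 bases before and 50 after the start site in RefSeq (GRCm38.p6), 5′ to 3′ on the strand of the gene, and capitals mark CG dinucleotides, the sites where imprints are methylated. The Igf2r window is chr17:12769657-12769956 on the minus strand, that of Airn, which starts inside Igf2r, is chr17:12741061-12741360 on the plus strand, and that of Peg3 is chr7:6730370-6730669 on the minus strand.
Igf2r: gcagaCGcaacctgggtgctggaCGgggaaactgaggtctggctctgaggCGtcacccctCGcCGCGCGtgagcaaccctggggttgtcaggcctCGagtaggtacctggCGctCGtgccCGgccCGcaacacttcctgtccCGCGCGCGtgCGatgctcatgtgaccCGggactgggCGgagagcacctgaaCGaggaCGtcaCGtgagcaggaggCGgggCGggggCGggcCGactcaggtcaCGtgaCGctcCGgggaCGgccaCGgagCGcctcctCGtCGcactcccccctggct
Airn: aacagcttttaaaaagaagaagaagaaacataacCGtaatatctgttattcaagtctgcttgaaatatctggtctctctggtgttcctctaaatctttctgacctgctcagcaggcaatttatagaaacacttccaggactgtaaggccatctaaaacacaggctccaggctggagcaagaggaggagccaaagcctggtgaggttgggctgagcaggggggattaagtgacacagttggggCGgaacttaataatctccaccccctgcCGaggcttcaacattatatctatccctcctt
Peg3: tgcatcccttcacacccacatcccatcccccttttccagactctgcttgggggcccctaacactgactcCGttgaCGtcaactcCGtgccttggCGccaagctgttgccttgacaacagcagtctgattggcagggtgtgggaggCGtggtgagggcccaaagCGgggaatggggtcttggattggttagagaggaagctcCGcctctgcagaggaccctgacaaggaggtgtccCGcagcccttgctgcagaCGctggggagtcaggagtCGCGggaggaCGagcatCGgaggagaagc

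The Igf2r window held 34 CG, more than 92.3% of the 32851 RefSeq windows, whose median was 7, and the Airn window held 3, more than 23.3% of them. The Peg3 window held 13, more than 62.1%. CG was present in 94.6% of all windows. Both strands were searched for the CCAAT box, the E box CACGTG, the RBPJ motif GTGGGAA and the YY1 motif GCCATNTT. The Igf2r window held 2 of CACGTG, which overlap CG sites, and the Peg3 window 2 of CCAAT. Among all windows CACGTG occurred in 7.15%, CCAAT in 37.4%, GTGGGAA in 6.38% and GCCATNTT in 6.05%. A window was found for 33 of the 40 members, and a match is a description of the letters, not a binding site.

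Per length, Mest was the member with the highest level. Levels between genes are compared as RPKM, which is CPM divided by the exon length in kilobases, as means over the 6 libraries. Mest, a gene of a hydrolase-like membrane protein, averaged 396 RPKM, with 303 to 487 across libraries, and ranked 26 of the 16007 genes. Next came the tetraspanin gene Cd81 at 222 RPKM, whose range of 199 to 253 overlapped with the 63.0 to 235 RPKM of Peg10, a retrotransposon-derived gene needed in the mouse placenta (mean 155). Nnat, which encodes the small membrane proteolipid neuronatin, averaged 112 RPKM, and its 77.8 to 165 overlapped with Peg10 as well and with the 61.3 to 84.9 of Nap1l4, a histone chaperone gene.

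A middle group of members spanned 60.6 RPKM for Gnas, which encodes the stimulatory G protein alpha subunit, to 2.05 RPKM for the zinc finger gene Plagl1. Between them lay Ndn (47.8 RPKM), Impact (35.3), Peg3 (34.7), Mcts2 (27.4), Snrpn (19.8), Blcap (15.8), Sgce (14.2), Peg13 (12.4), Copg2 (10.1), Inpp5f (8.96), Ube3a (8.37) and Ppp1r9a (7.62). Airn, Mkrn3, H13, H19 and Igf2r followed at 6.49, 5.94, 3.86, 3.52 and 3.41 RPKM. Neighbours in this order from Impact to Peg3 and from Mkrn3 to Airn had overlapping ranges across libraries, and so did others. Blcap (12.1 to 20.8 RPKM), Sgce (12.3 to 19.6), Peg13 (8.50 to 18.4) and Copg2 (7.28 to 15.2) each overlapped the next. H19 (1.42 to 7.69 RPKM) overlapped with Igf2r (1.36 to 6.27), so close ranks are not firm. The annotated exons of Snrpn share 27.3% of their bases with genes on the same strand, among them Snurf, so its level is uncertain and may be understated.

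The 9 lowest of the 33 were Dlk1 (0.51 RPKM), Zim1 (0.33), Usp29 (0.33), Asb4 (0.20), Kcnq1ot1 (0.09), Magel2 (0.08), Meg3 (0.07), Rian (0.05) and Zdbf2 (0.02). Kcnq1ot1, a long RNA that silences its neighbours on the paternal chromosome, had 7.47 to 9.80 CPM in every library, and its low RPKM is spread over 93092 bases of exon. Some of these genes reached the filter's limit of 0.289 CPM in some libraries only. For Magel2 these were 2 libraries of clone 31 and 0 of clone 30, for Meg3 1 of clone 31 and 3 of clone 30, for Rian 2 and 3, and for Zdbf2 2 and 1.

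Of the 7 members that the filter did not keep, Rasgrf1, a Ras exchange factor gene, had 0 counts in all 6 libraries. The growth factor gene Igf2 had 15 counts in all and H19, its noncoding neighbour, 1595. The annotated exons of Igf2 share 62.8% of their bases with Gm49394 on the same strand, so its count is uncertain and may be understated. Grb10, an adaptor in insulin signalling, had 21 counts, Slc22a18, a transporter gene, 13, the cell cycle inhibitor gene Cdkn1c 8, Phlda2 6 and the microRNA host Mirg 3. No library had more than 8 counts of any of these 7. The plot of levels by gene shows the span of the 33 kept members.

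**Figure D1:**
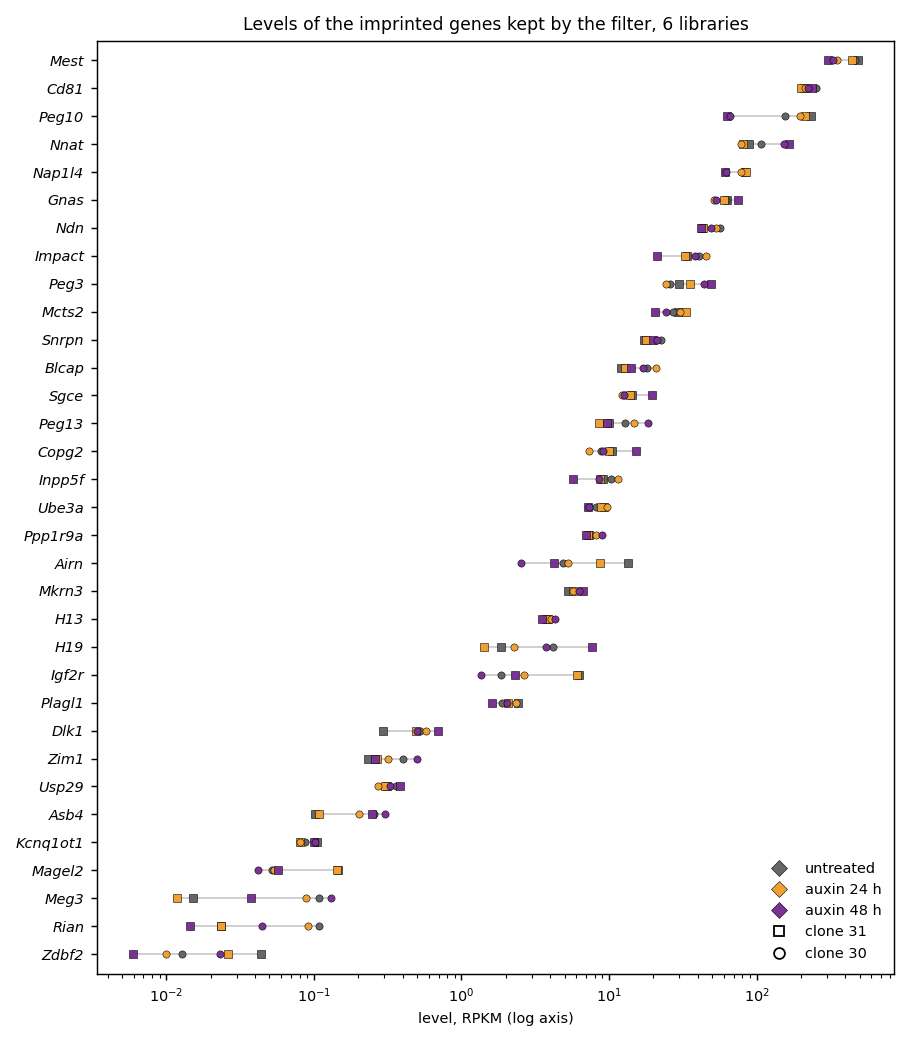
Levels of the 33 kept imprinted genes in RPKM (log axis), with 1 point per library, coloured by auxin time and shaped by clone, and a line over the range. Mest is highest at a mean of 396 RPKM and Zdbf2 lowest at 0.02, and the widest spreads by clone are those of Meg3 and Rian.

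The first comparison sets 24 h of auxin against untreated cells and asks what changes within a day. No imprinted gene was called at 24 h. In edgeR 0 of 33 members passed with treatment group alone and 0 with the clone as a block, against 0% of all genes in both fits. Below an unadjusted p of 0.05 were 0 members in either fit. Over all 16007 genes 240 were below it with treatment group alone and 988 with the block. DESeq2 and limma voom also called 0 members, with and without the block, although DESeq2 called 0.256% of all genes with the block and 0.0375% without it. The median log2 change of the members was -0.03 with the block, against 0.01 over all genes tested, with 12 above 0 and 21 below. Members ranged from -0.68 for H19 and Zdbf2 to 0.43 for Dlk1.

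After 48 h of auxin, 8 imprinted genes changed relative to untreated cells, 6 of them lower and 2 higher. Peg10, Airn, Igf2r, Mest, Inpp5f and Nap1l4 fell, and Peg3 and Nnat rose. These calls came from edgeR with the clone as a block, in which 8 of 33 members (24.2%) passed against 17.4% of all genes, with 8.35% of all genes higher and 9.08% lower. DESeq2 with the block called 8 members and 21% of all genes. Without the block edgeR passed 0 members and 0% of all genes, limma voom 0 and 0%, and DESeq2 5 members and 10.4% of all genes. At an unadjusted p under 0.05 that edgeR fit had 6 of 33 members and 3311 of 16007 genes. The median log2 change of the members was 0.02, as it was over all genes tested (0.02), with 19 above 0 and 14 below. Of the paternally expressed members 2 rose, 4 fell and 13 were not called, and of the maternally expressed 0 rose, 2 fell and 12 were not called.

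**Figure D2:**
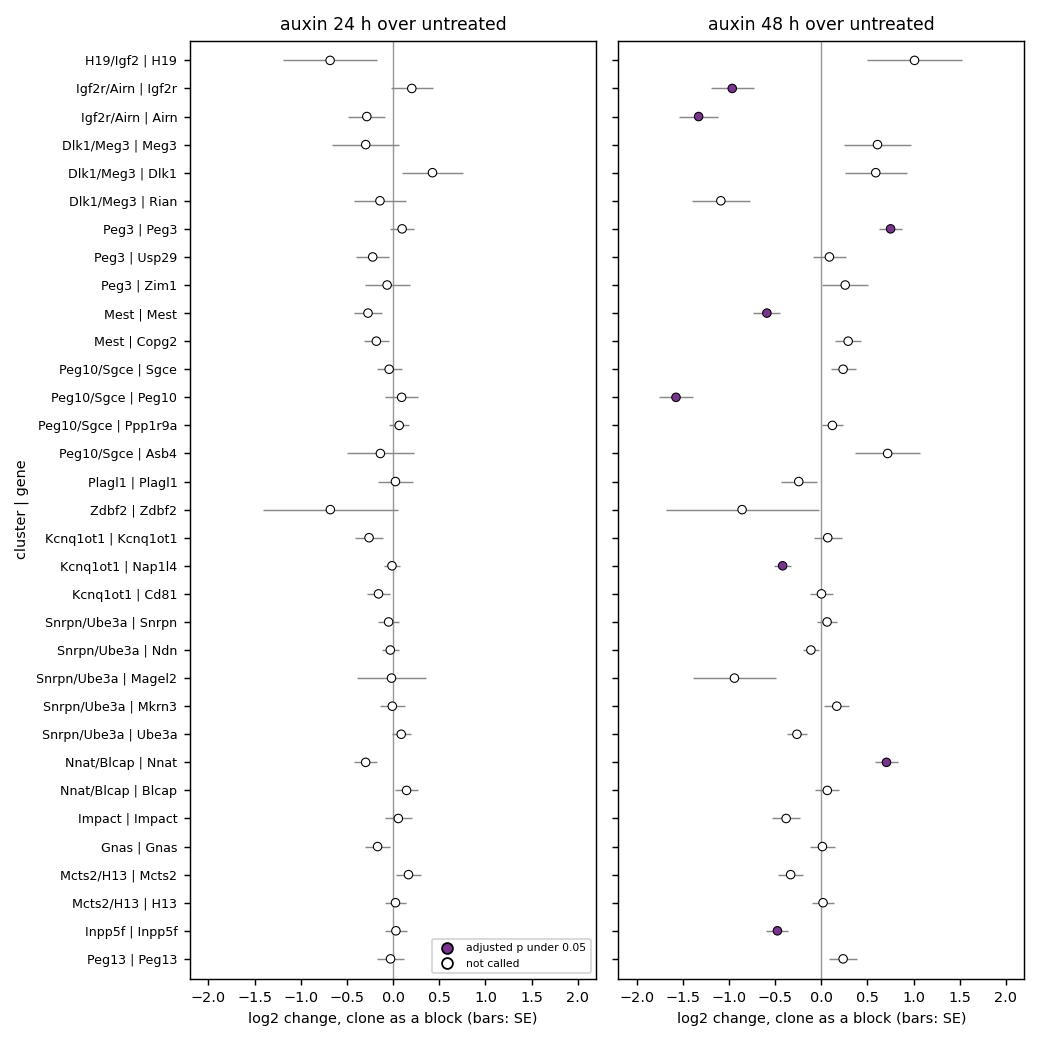
Log2 changes of the 33 kept imprinted genes by cluster at 24 h (left) and 48 h (right) of auxin over untreated, from edgeR with the clone as a block; bars are SE and filled points have an adjusted p under 0.05. No point is filled at 24 h, and at 48 h 8 are, from -1.57 for Peg10 to 0.75 for Peg3.

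Peg10 (chromosome 6, 4747306 to 4760517) had the largest called change. At 0, 24 and 48 h it had 1566, 1429 and 420 CPM in clone 31 and 1032, 1307 and 438 CPM in clone 30. Both 48 h libraries were far below the other 4, and the untreated and 24 h libraries overlapped. It averaged 429 ± 12.5 CPM at 48 h against 1299 ± 378 CPM untreated (SD, n = 2 each), a log2 change of -1.57 ± 0.18 (SE) in edgeR with the block (adjusted p = 0.0238, and 0.139 with treatment group alone). Bulk libraries cannot tell fewer cells that express a gene from less RNA per cell.

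Sgce, which encodes epsilon-sarcoglycan of the muscle and brain membrane complex, starts 99 bp from Peg10 on the opposite strand and is expressed from the same paternal chromosome. It was not called at 48 h, at 208 CPM in clone 31 and 134 CPM in clone 30, against 153 and 133 CPM untreated (log2 0.24 ± 0.14, edgeR adjusted p = 0.255 with the block). The ratio of Peg10 to Sgce in RPKM was 16.3, 15.5 and 3.21 at 0, 24 and 48 h in clone 31 and 12.3, 16 and 5.19 in clone 30. It was thus lower in both 48 h libraries than in the other 4. The ratios between neighbours are given as values and were not tested, and an exact permutation test of 2 libraries against 2 could not go below p = 0.333. The maternally expressed neighbours Ppp1r9a, which encodes the actin-binding protein neurabin, and Asb4 were not called either, at 0.12 ± 0.11 and 0.72 ± 0.35 on the log2 scale.

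Peg3, a zinc finger gene known for effects on growth and maternal behaviour in mice (chromosome 7, 6703892 to 6730431), was higher at 48 h. Its levels at 0, 24 and 48 h were 394, 473 and 656 CPM in clone 31 and 344, 326 and 584 CPM in clone 30. Both 48 h libraries lay above the other 4. It averaged 620 ± 50.6 CPM at 48 h against 369 ± 35.6 CPM untreated (SD, n = 2 each), a log2 change of 0.75 ± 0.13 in edgeR with the block (adjusted p = 0.0264, and 0.162 with treatment group alone).

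Usp29, a ubiquitin peptidase gene on the other strand with a window that overlaps the Peg3 window printed above, had 6.93 CPM in clone 31 and 5.95 CPM in clone 30 at 48 h, against 5.63 and 6.5 CPM untreated. Its groups overlapped and its log2 change was 0.09 ± 0.18. The ratio of Peg3 to Usp29 in RPKM was 95, 118 and 128 at 0, 24 and 48 h in clone 31 and 71.7, 89.7 and 133 in clone 30. Zim1, the maternally expressed zinc finger gene of the cluster, was not called at 0.26 ± 0.25 on the log2 scale.

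Nnat (chromosome 2, 157560078 to 157562522) lies inside an intron of Blcap, a gene of a small membrane protein read from the other strand. At 0, 24 and 48 h it had 161, 148 and 302 CPM in clone 31 and 197, 142 and 281 CPM in clone 30, so that both 48 h libraries exceeded the other 4. Nnat rose by 0.71 ± 0.12 on the log2 scale at 48 h relative to untreated (edgeR adjusted p = 0.0270 with the block, 0.139 with treatment group alone). Blcap was not called, at 42.6 CPM in clone 31 and 51.5 CPM in clone 30 at 48 h, against 36.9 and 54.7 CPM untreated (log2 0.07 ± 0.13).

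Airn (chromosome 17, 12741311 to 12860122) is the paternal noncoding RNA whose transcription across the Igf2r promoter silences that gene. It had 47.9, 30.9 and 15.3 CPM at 0, 24 and 48 h in clone 31 and 17.5, 18.9 and 9.05 CPM in clone 30. The 48 h libraries were the lowest of their clones and did not overlap with the untreated ones, although the 48 h library of clone 31 came close to the untreated one of clone 30. Its log2 change was -1.33 ± 0.21 in edgeR with the block (adjusted p = 0.0246, and 0.235 with treatment group alone).

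Igf2r, the maternally expressed receptor gene whose product takes IGF2 to the lysosome (chromosome 17, 12682406 to 12769664), moved the same way. It had 59.1, 57.1 and 21.8 CPM at 0, 24 and 48 h in clone 31 and 17.4, 25.1 and 12.9 CPM in clone 30. Across clones the 48 h and untreated libraries overlapped, and within each clone the 48 h library was the lowest. The log2 change was -0.96 ± 0.23 in edgeR with the block (adjusted p = 0.0446, and 0.402 with treatment group alone), with -1.44 within clone 31 and -0.43 within clone 30. The ratio of Airn to Igf2r in RPKM was 2.13, 1.43 and 1.85 at 0, 24 and 48 h in clone 31 and 2.65, 1.99 and 1.85 in clone 30.

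Mest (chromosome 6, 30723547 to 30748465) and its maternally expressed neighbour Copg2, a subunit gene of the vesicle coat complex, overlap over 912 exon bases on opposite strands, and the counts were made by strand. Mest had 1194 CPM in clone 31 and 1296 CPM in clone 30 at 48 h, against 1922 and 1832 CPM untreated, and the 24 h libraries lay between at 1740 and 1378 CPM. The groups at 48 h and untreated did not overlap, with a log2 change of -0.59 ± 0.15 (edgeR adjusted p = 0.0472 with the block, 0.163 with treatment group alone). Copg2 was not called at 0.29 ± 0.14 (edgeR adjusted p = 0.185 with the block). The ratio of Mest to Copg2 in RPKM was 46.7, 44.4 and 19.9 at 0, 24 and 48 h in clone 31 and 52.3, 48.0 and 36.2 in clone 30.

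The remaining called members had smaller changes. Nap1l4, at the edge of the Kcnq1ot1 cluster, had 190 CPM in clone 31 and 191 CPM in clone 30 at 48 h, against 258 and 251 CPM untreated (log2 -0.42 ± 0.09, edgeR adjusted p = 0.0348 with the block, 0.146 with treatment group alone). Inpp5f, a phosphoinositide phosphatase gene with an imprinted variant in the brain, had 47.1 CPM in clone 31 and 71.6 CPM in clone 30 at 48 h, against 75.5 and 86.3 CPM untreated. The groups of both genes did not overlap, and Inpp5f changed by -0.48 ± 0.12 on the log2 scale (edgeR adjusted p = 0.0481 with the block, 0.366 with treatment group alone).

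**Figure D3:**
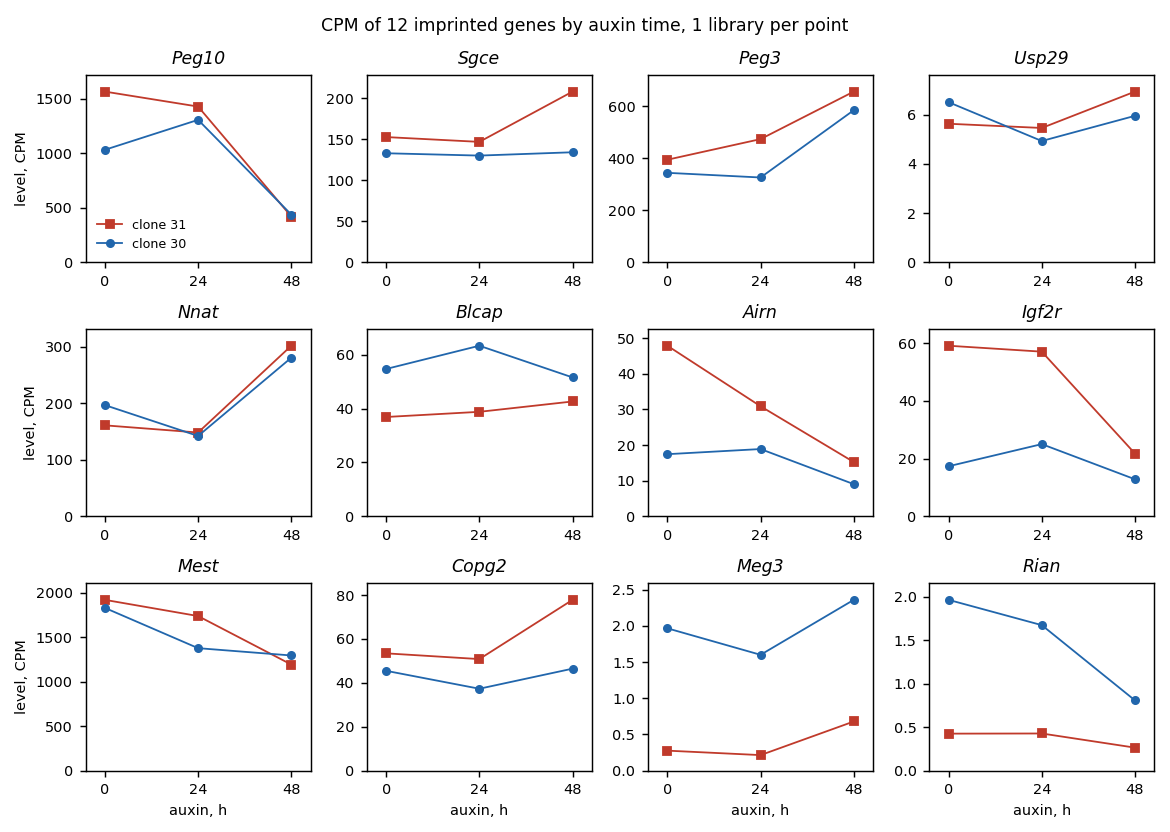
CPM of 12 imprinted genes at 0, 24 and 48 h of auxin, arranged as neighbours, with clone 31 in red squares and clone 30 in blue circles, 1 library per point. Peg10 is at 420 and 438 CPM in the 48 h libraries while Sgce stays at 134 CPM or above, and Meg3 and Rian are lower in clone 31 at every time.

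Among members with larger estimates that were not called at 48 h, H19, a noncoding RNA that hosts a microRNA, had 18.9 CPM in clone 31 and 9.21 CPM in clone 30, against 4.58 and 10.3 CPM untreated. Its groups overlapped, the clones moved in opposite directions (log2 2.05 and -0.16) and the fitted change of 1.01 ± 0.52 had an edgeR adjusted p of 0.210 with the block. Rian had -1.09 ± 0.32 (edgeR adjusted p = 0.0655 with the block), Meg3 0.61 ± 0.36, Dlk1 0.59 ± 0.34, Magel2 -0.94 ± 0.45 and Zdbf2 -0.86 ± 0.83. The Prader-Willi and Angelman region genes Snrpn, Ndn, Mkrn3 and Ube3a ranged from -0.26 for Ube3a, a ubiquitin ligase gene, to 0.17 for Mkrn3, with 0 called. Gnas at 0.01, Cd81 at 0.00, H13 at 0.02 and Kcnq1ot1 at 0.07 lay near 0 on the log2 scale, with SE of 0.12 to 0.15.

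The calls at 48 h changed when single libraries were left out. Each such fit has fewer residual degrees of freedom than the full one, and why calls were lost or gained was not tested. Without the untreated library of clone 31, 0 of the 8 members were called in the blocked fit (6 genes called in all), and without either 24 h library 2 were, Peg10 and Airn. Of the 8, 6 stayed called without the 48 h library of clone 31, where Igf2r and Inpp5f lost their calls and 7 members passed in all. All 8 stayed without that of clone 30, with 15 passing in all, and 6 stayed without the untreated one of clone 30, where Mest and Nap1l4 lost theirs. The direction of all 8 was the same in these 6 fits, with Peg10 between -1.85 and -1.29, Airn between -1.66 and -0.94, Igf2r between -1.33 and -0.55, Peg3 between 0.66 and 0.83 and Nnat between 0.52 and 0.89. Igf2r was at -0.55 (edgeR adjusted p = 0.226) without the untreated library of clone 31. Upper-quartile scaling with the block, chosen after seeing the data, called 6, with Mest at an edgeR adjusted p of 0.0602 and Inpp5f at 0.0530.

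Summed astrocyte and oligodendrocyte markers were higher in the 48 h group. Astrocyte markers summed to 1228 CPM in clone 31 and 1128 CPM in clone 30 at 48 h, against 549 and 817 CPM untreated, and 4 of 6 tested rose in edgeR with the block. Oligodendrocyte markers summed to 531 and 326 CPM at 48 h, against 92.9 and 147 CPM untreated in the same clone order, and 3 of 4 tested rose. Neural progenitor markers summed to 7707 and 7808 CPM at 48 h, against 5878 and 7085 CPM, with 2 of 14 tested higher and 0 lower. Neuron markers summed to 1057 and 1179 CPM, against 903 and 1260 CPM untreated, with 0 of 8 tested higher and 1 lower. Mesenchymal markers had 1 of 9 tested higher and 0 lower, pluripotency markers 1 of 3 and 0, and endoderm markers 0 of 1 and 0. Over all genes tested 8.35% were higher and 9.08% lower in that fit. None of the astrocyte and oligodendrocyte markers was at 0 in all libraries. Their part in the changes of the imprinted genes was not tested.

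The comparison of 48 h with 24 h of auxin shares its 48 h libraries with the one above, so its values are given beside those. In edgeR with the block 8 of 33 members (24.2%) passed, 2 higher and 6 lower, against 26.1% of all genes, 12.3% higher and 13.9% lower, with a median of 0.05 against 0.03 over all genes. DESeq2 with the block called 12 members and 26.7% of all genes. Without the block edgeR passed 0 members and 0% of all genes, limma voom 0 and 0%, and DESeq2 7 members and 15.8% of all genes. At an unadjusted p under 0.05 that edgeR fit had 7 of 33 members and 3997 of 16007 genes. Peg10 fell by 1.67 ± 0.18 on the log2 scale, Igf2r by 1.17 ± 0.23, Airn by 1.04 ± 0.21, Inpp5f by 0.51 ± 0.12, Mcts2, a translation factor retrogene inside H13, by 0.50 ± 0.14 and Nap1l4 by 0.41 ± 0.09. Nnat rose by 1.0 ± 0.12 and Peg3 by 0.65 ± 0.13. Mest, called against untreated, was at -0.32 ± 0.15 and not called here, and Mcts2 was at -0.33 ± 0.14 and not called against untreated. Without either 24 h library 0 of the 8 were called, and upper-quartile scaling, which moved the median of all genes by 0.08, left Mcts2 at an edgeR adjusted p of 0.0696.

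**Figure D4:**
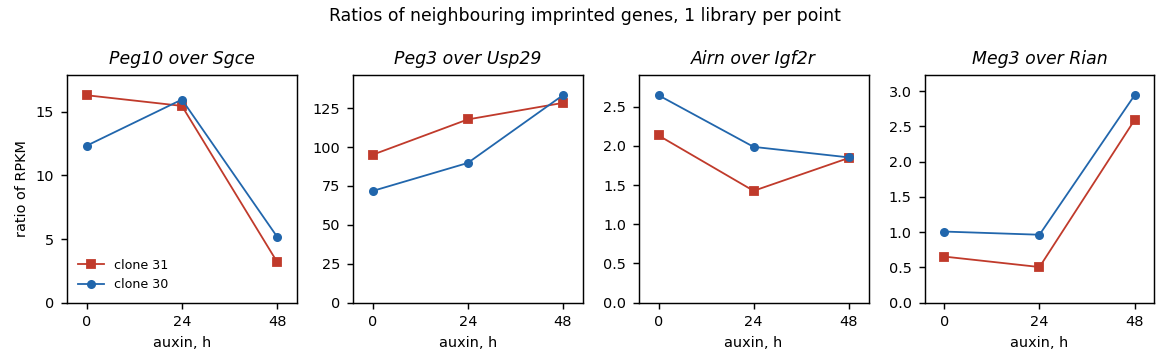
Ratios of RPKM between neighbouring imprinted genes at 0, 24 and 48 h, with clone 31 in red squares and clone 30 in blue circles, 1 library per point. The Peg10 to Sgce ratio is 3.21 and 5.19 in the 48 h libraries against 12.3 or more in the other 4, and the Meg3 to Rian ratio rests on 7 to 73 counts per gene and library.

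The comparison of the subclones asks how far the 2 lines differ at the same times. Clone 31 had lower Meg3, Rian, Peg13, Blcap, Impact, Inpp5f and Ndn and higher Igf2r, Airn and Copg2 than clone 30. In edgeR with treatment group and clone as terms 10 of 33 members (30.3%) passed, 3 higher and 7 lower, against 16.1% of all genes, with 7.54% higher and 8.58% lower. The median log2 difference of the members was -0.05, against 0.01 over all genes tested, with 15 above 0 and 18 below. DESeq2 and limma voom each called 10, against 17.1% of all genes in DESeq2 and 16.8% in limma voom. With clone as the only term 1 member, Meg3, was called, against 3.54% of all genes.

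Meg3 and Rian, maternally expressed noncoding RNAs of the Dlk1 cluster on chromosome 12, were the members furthest apart between the clones. Meg3 (109541001 to 109571726) had 0.28, 0.21 and 0.68 CPM at 0, 24 and 48 h in clone 31 and 1.97, 1.6 and 2.36 CPM in clone 30. These are 11, 9 and 18 counts in clone 31 against 49, 64 and 73 counts in clone 30. The clones did not overlap, and the log2 difference was -2.45 ± 0.30 (edgeR adjusted p = 0.00687). The filter kept Meg3 through clone 30, where it is high, since only 1 library of clone 31 reached the limit, so a difference between the clones was favoured by that choice. With no filter beyond 1 count the gene was called as well.

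Rian, a host of small nucleolar RNAs (109603940 to 109661716), had 0.43, 0.43 and 0.26 CPM at those times in clone 31 and 1.97, 1.68 and 0.81 CPM in clone 30, again with no overlap (log2 -1.98 ± 0.25, edgeR adjusted p = 0.00701). Dlk1, the paternally expressed gene of the cluster, whose product resembles a Notch ligand, had 1.65, 2.78 and 3.92 CPM in clone 31 and 2.97, 3.28 and 2.81 CPM in clone 30. It overlapped between the clones and was not called (-0.18 ± 0.27). The ratio of Meg3 to Rian in RPKM was 0.65, 0.50 and 2.59 in clone 31 and 1.01, 0.96 and 2.94 in clone 30, so the clones were closer in this ratio than in either level, at low counts. All 6 fits that left out 1 library called Meg3, and Rian was called in 5 of them, with an edgeR adjusted p of 0.0560 without the 24 h library of clone 30.

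Igf2r averaged 46.0 ± 21.0 CPM in clone 31 and 18.4 ± 6.16 CPM in clone 30 (SD, n = 3 libraries of 1 clone each), with a log2 difference of 1.24 ± 0.19 (edgeR adjusted p = 0.0122). Airn averaged 31.3 ± 16.3 CPM in clone 31 and 15.1 ± 5.32 CPM in clone 30, with 0.98 ± 0.17 (edgeR adjusted p = 0.0168). At each time clone 31 was above clone 30, by 1.77, 1.19 and 0.76 for Igf2r and by 1.46, 0.71 and 0.75 for Airn on the log2 scale at 0, 24 and 48 h. Over all times the clones overlapped, since clone 31 at 48 h was below clone 30 at 24 h for both genes. Both were called in all 6 fits that left out 1 library.

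**Figure D5:**
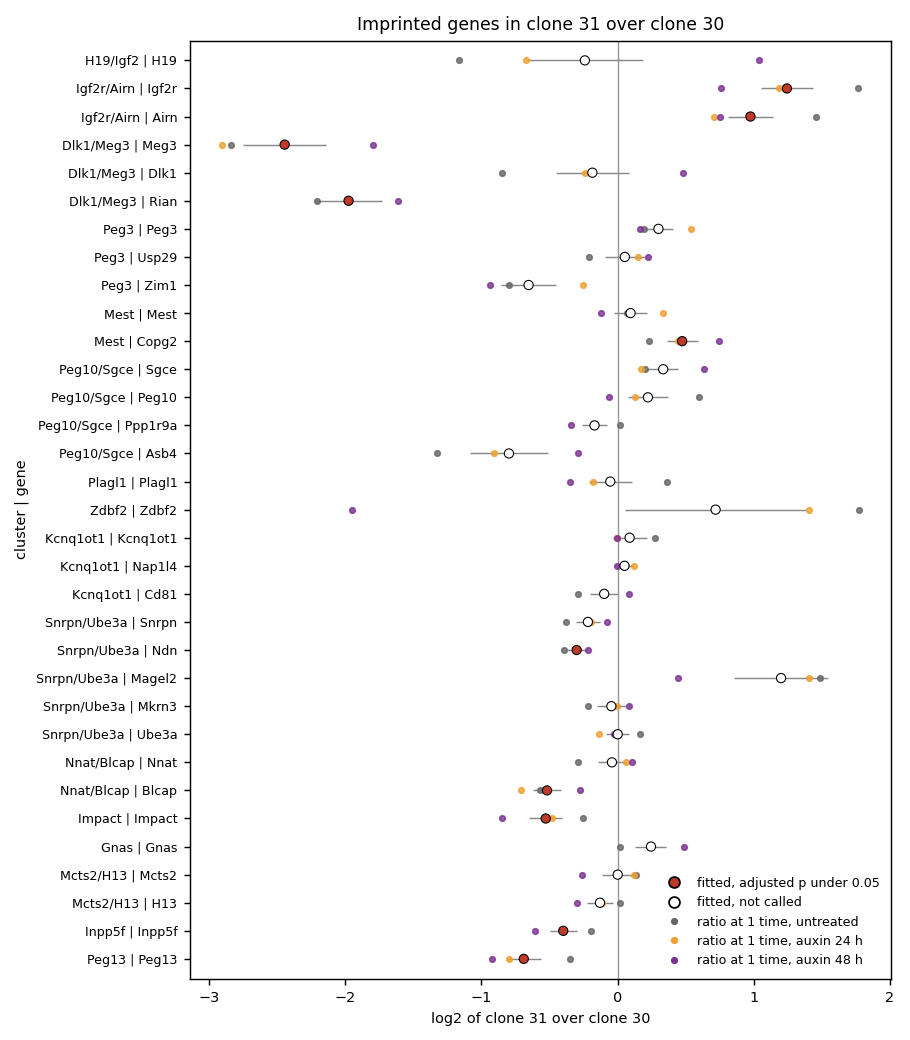
Log2 of clone 31 over clone 30 for the 33 kept imprinted genes by cluster, with the fitted value and its SE (filled red at an edgeR adjusted p under 0.05) and the ratio at each time as small points. Meg3 and Rian are at -2.45 and -1.98 and Igf2r and Airn at 1.24 and 0.98, with all 3 times on the same side of 0 for these 4 genes.

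The other called members differed less between the clones. Peg13, a noncoding RNA inside Trappc9, had 40.2 to 47.5 CPM in clone 31 and 60.5 to 87.1 CPM in clone 30 (log2 -0.69 ± 0.12, edgeR adjusted p = 0.0188). Blcap had 36.9 to 42.6 CPM in clone 31 and 51.5 to 63.3 CPM in clone 30 (-0.52 ± 0.10, edgeR adjusted p = 0.0262), while Nnat inside it was not called (-0.04 ± 0.10). Impact, a regulator of the stress kinase GCN2, had 72.5 to 116 CPM and 131 to 157 CPM in the same order (-0.53 ± 0.12, edgeR adjusted p = 0.0381). The ranges of these 3 genes did not overlap between the clones.

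Copg2 had 50.8 to 77.8 CPM in clone 31 and 37.3 to 46.5 CPM in clone 30 (log2 0.48 ± 0.11, edgeR adjusted p = 0.0423), while Mest beside it was at 0.10 ± 0.12. Ndn, a MAGE family gene of the Prader-Willi region, had 156 to 160 CPM in clone 31 and 181 to 208 CPM in clone 30 (-0.30 ± 0.07, edgeR adjusted p = 0.0461), with no overlap. Inpp5f had 47.1 to 75.5 CPM in clone 31 and 71.6 to 95 CPM in clone 30, which overlapped (-0.40 ± 0.10, edgeR adjusted p = 0.0453). Other members of the Ndn region were not called, with Magel2, which the filter kept through clone 31, at 1.20 ± 0.34 (edgeR adjusted p = 0.0687), Snrpn at -0.22 ± 0.09, Mkrn3 at -0.05 ± 0.11 and Ube3a at 0.00 ± 0.09. Peg13, Blcap, Impact, Copg2, Ndn and Inpp5f lost their calls without either 24 h library, and Ndn and Blcap also without either untreated one (edgeR adjusted p = 0.210 for Ndn and 0.0738 for Blcap without that of clone 30). Leaving out the 24 h library gave 4 called members where it was that of clone 31 and 3 where it was that of clone 30, and leaving out either 48 h library gave 16. Upper-quartile scaling called 9, with Copg2 at an edgeR adjusted p of 0.0614.

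Mesenchymal markers differed between the clones too. They summed to 119 to 161 CPM in clone 31 and 25.2 to 26.3 CPM in clone 30, with 6 of 9 tested higher and 1 lower in clone 31 and none at 0 in all libraries. Astrocyte markers had 0 higher and 3 of 6 lower, and neuron markers 1 higher and 3 of 8 lower. Oligodendrocyte markers had 1 of 4 higher and 1 lower, and neural progenitor markers 1 of 14 higher and 1 lower. Of the pluripotency and endoderm markers tested, 0 of 3 and 0 of 1 were called. Over all genes tested 7.54% were higher and 8.58% lower in clone 31. The part of these cell types in the differences of the imprinted genes was not tested.

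Whether the clones differed in their response to auxin was tested as the product of clone and auxin. In edgeR 0 of 33 members passed, against 0% of all genes, with 0 members and 18 genes in all at an unadjusted p under 0.05, and DESeq2 and limma voom called 0% of all genes. The fitted differences between responses ran from -1.66 for Zdbf2 to 1.76 for H19 on the log2 scale, with an SE of 1.45 for H19. The edgeR fit took the 24 h and 48 h libraries together, although 4185 genes differed between these times in edgeR with the block. A difference between the times then counts as spread between libraries, so 0 calls do not show that the clones responded alike. In simulated data that fit recovered 19.5% of genes given a 2-fold change, so differences of that size could be missed. Whether this recovery holds in the real libraries was not tested.

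Beyond the members, 50 further imprinted genes were listed and 26 passed the filter. At 48 h, 2 of the 26 rose and 2 fell in edgeR with the block (15.4%), close to the 17.4% of all genes, with a median of 0.00. Zrsr1, a splicing factor retrogene, had 47.8 CPM in clone 31 and 48.0 CPM in clone 30 at 48 h, against 24.6 and 31.7 CPM untreated (log2 0.78 ± 0.13, edgeR adjusted p = 0.0250). Smoc1, a matrix protein gene, rose by 1.18 ± 0.27, Jade1, a gene of a histone acetyltransferase complex, fell by 0.86 ± 0.11 and Atp10a, a lipid flippase gene, fell by 0.59 ± 0.14. Between the clones 2 were higher and 3 lower in clone 31 (19.2%), close to the 16.1% of all genes. Begain, in the Dlk1 cluster, had 1.98 to 2.68 CPM in clone 31 and 5.18 to 7.31 CPM in clone 30 (-1.40 ± 0.14, edgeR adjusted p = 0.00400). Osbpl5 and Herc3 were lower, at -0.61 and -0.38, and the cholesterol enzyme gene Dhcr7 and the microRNA effector gene Ago2 were higher by 0.91 and 0.35.

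Factors that set, copy or read imprints were followed as a list of 24, of which 21 passed the filter. At 48 h 8 fell and 1 rose in edgeR with the block (42.9% of the 21), against 17.4% of all genes, with 8.35% higher and 9.08% lower. The median was -0.21, against 0.02 over all genes. Hells, a remodeller needed for DNA methylation, fell by 1.37 ± 0.17 on the log2 scale, Uhrf1, which brings the methylase to replicated DNA, by 0.81 ± 0.11 and Dnmt1, the maintenance methylase, by 0.57 ± 0.10. Trim28, the corepressor that protects imprints, fell by 0.58 ± 0.10, Eed of the Polycomb complex by 0.56 ± 0.11, the histone methylase gene Setdb1 by 0.44 ± 0.10 and the zinc finger gene Yy1 by 0.42 ± 0.10. Tet2, a demethylation enzyme gene, rose by 0.91 ± 0.10, to 55.0 CPM in clone 31 and 50.1 CPM in clone 30, against 29.6 and 26.2 CPM untreated. Dnmt1 had 243 CPM in clone 31 and 195 CPM in clone 30 at 48 h, against 387 and 270 CPM untreated.

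Between the clones 6 of these 21 factors were higher in clone 31 and 0 lower (28.6%), against 16.1% of all genes, with 7.54% higher and 8.58% lower. Uhrf1 had 207 to 392 CPM in clone 31 and 140 to 246 CPM in clone 30 (log2 0.65 ± 0.09, edgeR adjusted p = 0.00871), and the ranges overlapped across times. Tet1 was higher by 0.65 ± 0.15, Dnmt1 by 0.46 ± 0.08, Ezh2, a Polycomb methylase gene, by 0.44 ± 0.07, Tet3 by 0.35 ± 0.07 and Trim28 by 0.31 ± 0.08. Dnmt3l, Ctcfl and Dppa3, factors of germ cells and early embryos, had 0 counts in all 6 libraries.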

How the data were processed

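RNA from 6 libraries, with a RIN score above 9, was sequenced as read pairs of 100 bases from TruSeq libraries, according to the labels' protocols. The authors deposited raw counts per gene, summed by featureCounts 1.6.1 across the exons of Ensembl release 92 (mm10) with its reverse strand setting, per the file headers and the submitters' processing notes; the aligner's version is not given in the sources used here. The exon length of each gene in bases, another deposited column, was used for RPKM. Of 53801 identifiers 53620 matched a symbol and 181 did not.

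The members and the lists were chosen with earlier results of these data known. All 40 members are accounted for; of the 2 other lists on imprinting, up to 8 genes each with the smallest p at 48 h and between clones were eligible to be named. Counts were tested by the robust quasi-likelihood method of edgeR 4.0.16 (R 4.3.3), 2-sided, over all 6 libraries after TMM scaling and filterByExpr (minimum count 10), at a Benjamini-Hochberg adjusted p of 0.05 over the 16007 genes kept. CPM and RPKM use TMM library sizes, and SE was taken as log2 change over root F. Floors cover counting error only, while SE and SD include the spread between libraries.

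Auxin comparisons were fitted with treatment group alone and again with the clone as a block. The titles give each subclone its number, so equally numbered libraries share a subclone, and their deviations from group means correlated at 0.80, 0.58 and 0.71, which pairs them. The biological coefficient of variation was 0.271 without and 0.121 with the block, on 3 and 2 residual degrees of freedom. Clones were compared with group and clone as terms, and their responses with the product of clone and auxin. Alternatives were DESeq2 1.42.0, limma voom 3.58.1, DESeq2 size factors, upper-quartile scaling, 2 other filters and leaving out each library.

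On simulated data with 200 genes changed 2-fold, edgeR at 48 h recovered 0% with treatment group alone and 67.5% with the block (14 of 149 calls false, 15639 genes run). These counts were drawn from the blocked fit, with the same clone effect at every time. That setting favours the block, so these recoveries do not show how the block performs in the real libraries. DESeq2 with the block recovered 69.5% of the changed genes (20 of 159 calls false). The clone fit recovered 74% (17 of 165 calls false, 15772 genes run), and the fit of the product 19.5% (19 of 58 calls false, 15644 genes run). Whether the recovery of the product fit holds in the real libraries, where 24 h and 48 h differ, was not tested.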

Additional observations from a re-analysis of the deposited data

Results flagged for a closer look

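In 5 of the 33 imprinted genes clone 31 moved one way at both auxin times and clone 30 moved the other way, against 1518 of all 16007 genes tested, which is 15.2% of the members and 9.48% of all genes. The difference at each time was not tested, since a product for each time leaves no residual degrees of freedom. With both auxin times combined edgeR called none of the 33 and 0 of 16007 genes (18 at an unadjusted p under 0.05; DESeq2 and limma voom called 0). The values here are the response of clone 31 minus that of clone 30 on the log2 scale. Plagl1, a zinc finger gene, gave -0.62, with -0.23 and -0.59 at 24 h and 48 h in clone 31 and 0.32 and 0.12 in clone 30. Peg13 gave -0.51, with -0.24 and -0.04 in clone 31 and 0.20 and 0.52 in clone 30. Ppp1r9a gave -0.28, with values near 0 of -0.03 and -0.06 in clone 31 and 0.17 and 0.30 in clone 30. H13 gave -0.23, with -0.04 and -0.14 in clone 31 and 0.10 and 0.18 in clone 30. Snrpn gave 0.25, higher in auxin in clone 31 and lower in clone 30.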

How the results depend on the processing

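At 48 h all limma voom calls and, unless the filter was dropped, all edgeR calls needed the replicate block, while DESeq2 made calls without it. At 24 h edgeR called 0 genes and 0 imprinted genes with or without the block; DESeq2 called 6 genes without it and 41 with it, and the blocked edgeR fit called 1 gene without UT replicate 31, 258 without Aux48h replicate 30 and 263 without Aux48h replicate 31, none of them imprinted genes listed here. At 48 h against untreated, where treatment group alone gave 0, the block gave 2790 genes and 8 imprinted genes, DESeq2 with the block 3357 and 8, and DESeq2 alone 1669 and 5. Chosen after seeing the data, and each with the block, limma voom gave 2852 and 8, upper-quartile scaling 2756 and 6 and DESeq2 size factors 2811 and 8. With no filter beyond 1 count treatment group alone gave 216 and 1.

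With the replicate block and 1 library left out, the counts at 48 h were 2013 and 6 without UT replicate 30, 6 and 0 without UT replicate 31, 614 and 2 without Aux24h replicate 30, 646 and 2 without Aux24h replicate 31, 6615 and 15 without Aux48h replicate 30, and 3290 and 7 without Aux48h replicate 31. Where 1 library was left out, the lone library of its group was assumed to vary like the others.

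At 48 h against 24 h the block gave 4185 genes and 8 imprinted genes, DESeq2 with the block 4271 and 12, DESeq2 alone 2530 and 7, and no filter beyond 1 count 833 and 2. With the block, limma voom gave 4385 and 8, upper-quartile scaling 4275 and 8 and DESeq2 size factors 4203 and 8. The blocked counts were 4223 and 12 without UT replicate 30, 4134 and 11 without UT replicate 31, 0 and 0 without Aux24h replicate 30, 3 and 0 without Aux24h replicate 31, 7449 and 17 without Aux48h replicate 30, and 4279 and 7 without Aux48h replicate 31.

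For clone 31 against clone 30 (2581 genes, 10 imprinted genes) leaving out a library gave 641 to 5041 genes and 3 to 16 imprinted genes, and dropping the terms for time (no replicate block among the terms) gave 566 and 1. The response difference stayed at 0 under each alternative run, and could not be fitted without either untreated library. The causes of these shifts were not tested.

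Between clones no called single-gene value changed sign under an alternative. Auxin values were set against treatment group alone, which called 0 genes, as did the response fit, so no called value could change sign there. Uncalled values changed sign in 87 pairs of a first and an alternative fit at 24 h and 44 at 48 h against untreated. There were 36 such pairs at 48 h against 24 h, 35 between clones and 18 for the response. Between clones 27 pairs lost a call and 12 gained one. At 48 h 76 pairs gained a call against untreated and 100 against 24 h. Depth limits Meg3, Rian, Magel2 and Zdbf2, with few counts per library, and the 7 members under the filter, for which no change was detectable at this depth. For Igf2 the exon bases shared with another gene may limit the count as well.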
